A study of Mus musculus with 4 samples.

Results

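Plasmacytoid dendritic cells (pDCs) were identified among human CD45+ cells sorted from breast carcinoma tumors grown in humanized mice, and 209 of the 37806 cells kept for analysis carried their genes. A cell was counted as a pDC when it held at least 2 UMIs (unique molecular identifiers, each the tag of 1 captured RNA molecule) over CLEC4C, LILRA4 and SCT together and at least 2 over TCF4 and IL3RA. It also had to hold at most 1 UMI of CD3D, CD3G and TRAC and at most 3 of C1QA and C1QB, which set T cells and macrophages aside. The tumors were MDA-MB-231, an established human breast carcinoma line, injected into the mammary fat pad of MISTRG mice, which carry the human genes for M-CSF, GM-CSF and IL-3 and had been engrafted with human CD34+ hematopoietic stem cells. Maraviroc, a small-molecule drug, was given to 7 mice in the drinking water at 300 mg/l from day 21 for 10 days, 7 mice were untreated, and tumors were taken on day 31. A hashtag antibody marked the mouse of origin, and cells were pooled into 2 droplet reactions, of 4 untreated and 3 maraviroc mice and of 3 untreated and 4 maraviroc mice. All mice shared the strain, the graft and the tumor line, no tumor-free tissue was among the samples, so untreated and maraviroc mice alike carried the gene for human IL-3, the ligand of IL3RA.

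pDCs are rare dendritic cells of lymphoid shape that sense viral and self nucleic acids in endosomes through TLR7 and TLR9 and can secrete very large amounts of type I interferon. Their identity depends on the transcription factor TCF4, and surface receptors such as CLEC4C (BDCA-2) and LILRA4 (ILT7) restrain interferon release when engaged. In human tumors, infiltrating pDCs are often described as poor interferon producers with tolerogenic features.

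Reaction 1 held 29120 barcodes and 133089612 UMIs and gave 76 pDCs, 0.275% of its 27645 kept cells (95% exact binomial interval 0.217% to 0.344%). Reaction 2 held 13582 barcodes and 175447534 UMIs and gave 133 pDCs, 1.31% of 10161 kept cells (1.10% to 1.55%). The reactions differed in depth as well, with medians of 2752 and 10742 UMIs per kept cell and 5306 and 13199 UMIs per pDC, so a given level gave fewer UMIs per cell in reaction 1. The median mitochondrial share was 1.93% and 1.79% in pDCs and 3.31% and 3.08% in kept cells. When every kept cell was thinned to 2000 UMIs, 36 of 18466 cells of reaction 1 (0.195%) and 56 of 9989 cells of reaction 2 (0.561%) passed the same thresholds. The thinning left out 9179 and 172 shallower cells. Among cells with a clear hashtag the shares were 0.652% and 1.34% unthinned and 0.386% and 0.566% thinned, a smaller gap between the reactions. A clear hashtag, with at least 60% of the hashtag UMIs, was present in 26.6% of the kept cells of reaction 1 and 88.2% of those of reaction 2, and in 48 and 120 of the pDCs. No pDC barcode was a pDC in both reactions, although 136 barcodes occurred in both and 3 pDC barcodes of reaction 2 were among them. Levels are UMIs of a gene in 1000000 UMIs (CPM), pooled over the 2344490 UMIs of all pDCs unless stated otherwise. Of these, 1761288 came from reaction 2, while the other kept cells had 117380957 UMIs in reaction 1 and 118758515 in reaction 2. Pooled levels thus weigh reaction 2 more in pDCs than in the other cells. In this 3' method a captured molecule gives 1 UMI, so levels were not divided by gene length. Whether different genes are captured equally well was not tested, and rankings of genes are rankings of UMIs. Values per mouse are from the 7 mice with at least 10 pDCs and a clear hashtag. Intervals cover counting error only.

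The cells carried the pDC program well beyond the genes that chose them. Of 8 further pDC markers (GZMB, JCHAIN, IRF7, TCL1A, LAMP5, SERPINF1, PLD4 and MZB1), a median of 7 was detected per cell, and 202 of 209 cells (96.7%) had at least 3. The genes used for selection were at 328 CPM for CLEC4C, 254 for LILRA4, 210 for SCT (secretin), 3733 for TCF4 and 907 for IL3RA (the IL-3 receptor α chain), against 1.2, 1.8, 2.0, 197 and 152 CPM in the other kept cells. These levels follow from the selection and are given as a description. Among all 10021 genes at 10 CPM or more in pDCs or in the other kept cells, 12.2% were at least 2-fold higher in pDCs and 21% at least 2-fold lower. These shares are the background for the counts by list in the paragraphs below. Of 45 pDC identity genes outside the selection, 44 passed this minimum, 43 of them were at least 2-fold higher in pDCs and 1, NRP1, was lower (64.4 against 190 CPM). NRP1 encodes neuropilin-1, the antigen known as BDCA-4, and was at 353 CPM in macrophages. A contrast of selected cells with the rest is no test, and none was made of it.

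Members near the low end of the thresholds carried fewer of the 8 markers. The 33 members with exactly 2 UMIs of CLEC4C, LILRA4 and SCT had a median of 3414 UMIs per cell, 81.8% of them had at least 3 of the 8 markers, and their GZMB level was 1132 CPM. The 176 members with 3 or more had 2697 CPM of GZMB, and 99.4% had at least 3 markers. Just outside, 137 cells with 1 UMI of these genes had 399 CPM of GZMB, 1298 CPM of the monocyte gene LYZ (797 in the members with exactly 2), and at least 3 markers in 40.1%. A further 8 cells fell outside with 1 UMI of TCF4 and IL3RA, and 62.5% of these had at least 3 markers. T cell genes alone kept 16 cells out, C1Q genes alone kept 55 out and both kept 14 out. At least 3 markers were found in 93.8%, 92.7% and 64.3% of these cells. The 55 cells had 1483 CPM of GZMB together with 826 CPM of C1QA and 4997 CPM of SPP1 (osteopontin).

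The T, B, NK, macrophage, monocyte, cDC1 and cDC2 marker lists were below their level in those types, but not all lists were below the other kept cells. The selection itself limited CD3D, CD3G, TRAC, C1QA and C1QB, and the T cells were chosen by the first 3 of these, so the T cell and macrophage sums are partly fixed by it and are no check of purity. All 7 comparison types were chosen by markers of their own. Their higher sums on these lists were therefore largely fixed in advance and are no check of purity either. The summed level of 8 T cell markers was 120 CPM against 3329 in T cells, all 8 were at least 2-fold lower than in the other kept cells, and CD3E reached 37.5 CPM. For macrophages the sum of 8 markers was 521 CPM against 18001 in macrophages, with SPP1 at 299 and C1QA at 22.6 CPM in pDCs, and at least 1 UMI of C1QA or C1QB was present in 68 cells. The 8 monocyte markers summed to 877 CPM against 19034 in monocytes, with S100A9 at 325 CPM, and 20 cells held at least 5 UMIs of CSF3R, S100A8, S100A9 and VCAN. B cell markers summed to 149 CPM against 3560 in B cells and 90.7 in the other kept cells, and NK cell markers to 329 against 12954 in NK cells. By reaction the NK cell sum in pDCs was 888 CPM in reaction 1 and 144 CPM in reaction 2. MS4A1 (CD20), which defines B cells, was at 19.2 CPM, and 7 pDCs had at least 2 UMIs of MS4A1 and CD79A. In the 33 members with exactly 2 UMIs of CLEC4C, LILRA4 and SCT, MS4A1 was at 193 CPM. In the 176 members with 3 or more it was at 5.1 CPM. The sum over 6 cDC1 markers was 501 CPM, against 2202 in cDC1 and 151 in the other kept cells, and was above the other kept cells in 7 of 7 mice. WDFY4 made up 474 CPM of it, while the defining genes CLEC9A and XCR1 were at 3.8 and 0.43 CPM. cDC2 markers summed to 15.8 CPM against 668 in cDC2. For plasma, carcinoma and mast cells no population was chosen for comparison. Plasma cell markers, mostly IGKC and IGHM, summed to 987 CPM against 316 in the other kept cells. By mouse this sum was lower in pDCs in maraviroc mouse 4 of reaction 2 (840 against 1855 CPM) and higher in the other mice. Carcinoma cell markers summed to 9.4 CPM. Mast cell markers summed to 112 CPM, and 195 UMIs of TPSAB1, TPSB2 and CPA3 were in 1 cell. An alternative chosen after seeing the data left out 32 cells. These had at least 2 UMIs of mast, B, NK, cDC1 or cDC2 genes or at least 5 of monocyte genes. The 177 pDCs left had a GZMB level of 2794 CPM and an SPP1 level of 166 CPM. Macrophage genes were not a criterion for leaving cells out. The comparison populations were chosen by small marker sets in the same way, for example 5790 T cells by CD3D, CD3G and TRAC, 418 type 2 conventional dendritic cells (cDC2) by CD1C, FCER1A and CLEC10A, 159 cDC1 by CLEC9A, XCR1 and CADM1, and 223 B cells by MS4A1 and CD79A.

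**Figure D1:**
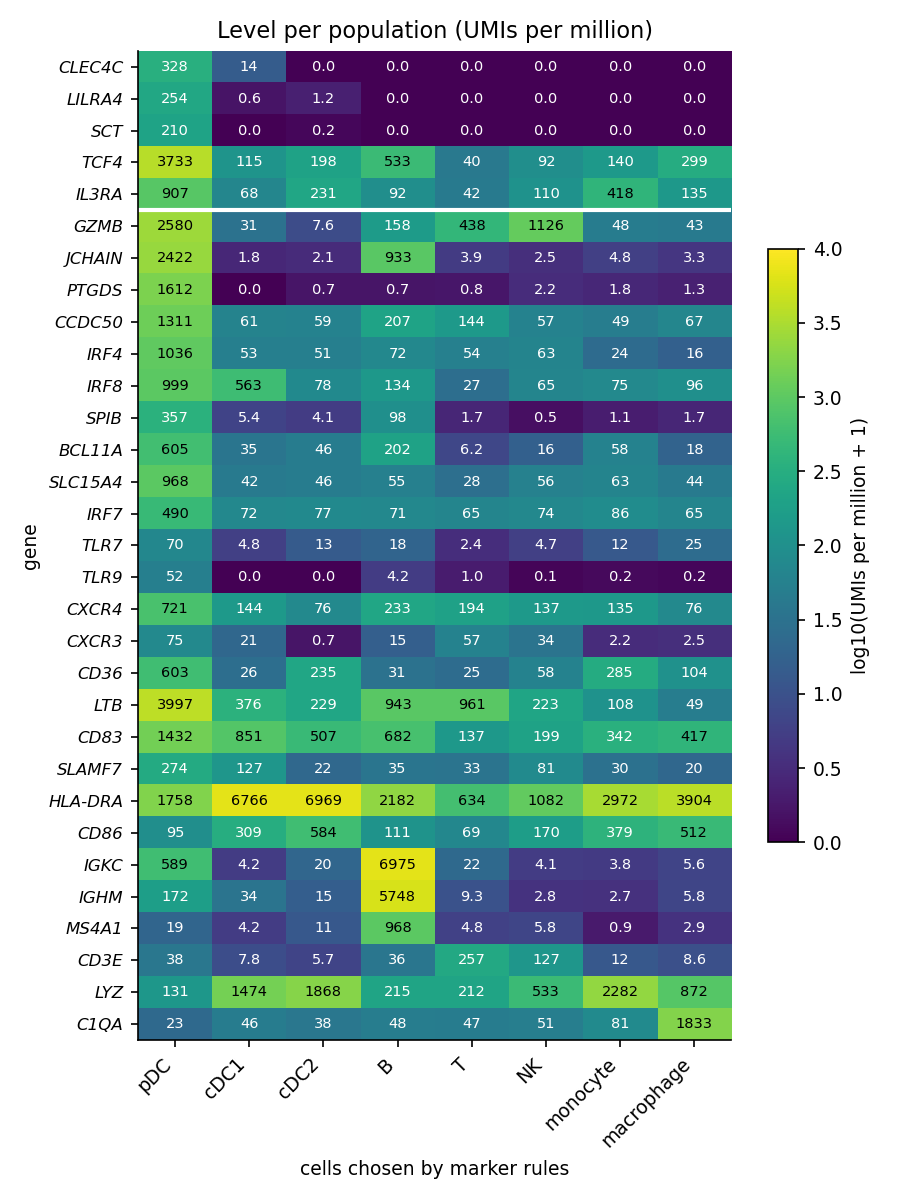
Level (CPM) of 31 genes (vertical axis) in pDCs and 7 other populations chosen by marker rules (horizontal axis), with colour on a log10 scale and the pooled level printed in each cell; the 5 genes above the white line chose the pDCs. GZMB, JCHAIN, PTGDS and LTB had their highest level of these populations in pDCs, whereas C1QA, which the selection kept low, was at 22.6 in pDCs and 1833 in macrophages.

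The identity gene of highest level outside the selection was GZMB, which encodes the serine protease granzyme B, known from cytotoxic lymphocytes and also made by human pDCs under IL-3. Its level was 2580 CPM (95% exact Poisson interval 2515 to 2646) and at least 1 UMI was found in 96.7% of pDCs. NK cells had 1126 CPM and T cells 438 CPM. Across the 7 mice GZMB ran from 1895 CPM through a median of 2353 to 3003 CPM. JCHAIN, the chain that joins secreted immunoglobulin into polymers, was at 2422 CPM in pDCs, at 933 in B cells and at 24.5 in all other kept cells. Its lowest mouse had 1840, its median mouse 2447 and its highest 2748 CPM. Both genes thus varied by less than 2-fold over mice, and 199 of 209 cells (95.2%) carried both transcripts. CCDC50, a ubiquitin-binding adaptor, was at 1311 CPM (1276 ± 304, SD over 7 mice). ZFAT, a zinc finger factor, was at 1003 against 22.9 CPM, and UGCG, which makes glucosylceramide, at 890 against 84.5 CPM.

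By fold over the other kept cells, with 1 CPM added to both levels and the selection genes left out, 126 of 3281 genes at 50 CPM or more in pDCs of both reactions were at least 10-fold higher. The 12 genes with the largest fold were the long noncoding RNAs LINC01478 (190.6-fold) and LINC01374 (121.4-fold), the transcripts AC023590.1 (132.6-fold) and AC007381.1 (101.9-fold), and PTGDS, RGS7, TPM2, KCNK10, EPHB1, LONRF2, FAM160A1 and JCHAIN. RGS7, a regulator of G protein signaling, was 148.6-fold higher, TPM2, a tropomyosin, 113.3-fold, and KCNK10, a potassium channel, 112.6-fold. EPHB1, an ephrin receptor, was 109.5-fold higher, at 598 CPM in reaction 1 and 824 CPM in reaction 2. The added 1 CPM lowers the fold most where the other cells were near 1 CPM, as for KCNK10 (0.987 CPM) and RGS7 (1.91 CPM). Every one of these 12 folds was computed on the cells that the rule selected and is descriptive.

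Transcription factors were listed next. Without TCF4, which served to select the cells, 15 of 23 listed factors were at least 2-fold higher in pDCs and 3 lower, with a median log2 difference of 1.36 against -0.17 over all genes. After TCF4, the highest were ETV6 (1260 CPM), IRF4 (1036 CPM) and IRF8 (999 CPM). IRF4, a factor shared with plasma cells, was at 72.1 CPM in B cells and no more than 62.7 CPM in the other populations, and its lowest and highest mice had 853 and 1357 CPM. IRF8, required for pDCs and cDC1, was at 563 CPM in cDC1. SPIB, an ETS factor that restrains plasma cell fate, was at 357 CPM in pDCs and 98.0 in B cells, and BCL11A, needed for lymphoid and pDC development, at 605 and 202 CPM. RUNX2, which is involved in the exit of pDCs from bone marrow, was at 660 CPM. BATF3, a factor of cDC1, was at 3.8 CPM against 167 in cDC1, and ID2, an inhibitor of TCF4, at 164 against 238 CPM in the other kept cells. ZEB2, which represses ID2, was also lower in pDCs, at 474 against 1221 CPM.

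The endosomal sensing machinery was present. TLR9, the receptor for unmethylated CpG DNA, was at 52.5 CPM in pDCs, at 4.2 in B cells and at 0.7 in all other kept cells. TLR7, the receptor for single-stranded RNA, was at 70.4 CPM and at 25 CPM in macrophages, the next population. SLC15A4, the transporter that couples these receptors to interferon regulatory factors, reached 968 CPM against 46.2 in the other kept cells. PLD4, an exonuclease that trims endosomal DNA and RNA, was at 303 against 5.3 CPM. IRF7, the factor that drives interferon-α genes, was at 490 CPM (mice 363 to 597, median 492) against 71.2 CPM. UNC93B1, which escorts the receptors to endosomes, was at 141 against 69.2 CPM. The adaptor MYD88 (64.8 against 61.2 CPM) and TRAF3 (256 against 255 CPM) were at about the same level in pDCs and in the rest. SPP1, which was on this list as a reported partner of the pathway, was at 712 CPM in pDCs of reaction 1 and 162 CPM in reaction 2. Pooled, its 299 CPM was below the level in each of the 7 comparison populations, the next being B cells at 598 CPM. SPP1 was at 178 CPM in the 168 members with a clear hashtag and at 1229 CPM in the 41 without. In all, 6 of the 16 sensing genes with enough UMIs were at least 2-fold higher in pDCs and 3 lower (all genes: 12.2% and 21%).

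Transcripts of type I and III interferons were not detected in pDCs. The files list 20 type I and III interferon genes, and their UMIs in the 209 pDCs summed to 0. The other kept cells held 216 of them, which is 0.915 CPM, below the 1.28 CPM that 3 counts in all pDCs would give, so no difference between pDCs and other cells was detectable at this depth. With 0 of 209 cells, the 95% exact binomial interval of the share of cells with a UMI reaches up to 1.75%. Of these genes, 12 had no UMI in any barcode of either reaction. IFNG, the type II interferon, was at 1.7 CPM in pDCs (4 UMIs) and at 102 CPM in T cells.

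Interferon-stimulated genes, which are induced through the interferon receptors, were not uniformly high or low. Of 48 with a measured level, 2 were at least 2-fold higher in pDCs and 17 lower, with a median log2 difference of -0.58 against -0.17 over all genes. The antiviral GTPase MX1 was at 711 CPM against 409 in the other kept cells, and was above them in 6 of 7 mice. IFI44L was at 517 against 185 CPM and above in 7 of 7 mice. BST2 (tetherin), the ligand of LILRA4, was at 348 against 319 CPM. ISG15, a ubiquitin-like modifier, was lower in pDCs than in the other kept cells in each of the 7 mice, at 660 against 993 CPM pooled. It varied over mice, with 188 CPM in the lowest mouse, 595 in the median mouse and 911 in the highest, and with 888 CPM in pDCs of reaction 1 and 585 in reaction 2. Among the genes with lower levels than in other cells were guanylate-binding proteins and the CXCR3 ligands CXCL9 and CXCL10, which respond strongly to interferon-γ. GBP1 was at 9.8 against 183 CPM, GBP2 at 19.2 against 144, GBP4 at 11.5 against 57.0 and GBP5 at 8.1 against 80.6 CPM. Each of these GBP genes was below the other kept cells of the same mouse in 7 of 7 mice. In the 177 pDCs left without the 32 cells GBP1 was at 2.5 CPM, GBP2 at 3.5, GBP4 at 4.5 and GBP5 at 5.0 CPM. CXCL10 was at 19.2 against 302 CPM and CXCL9 at 2.1 against 69.7 CPM. IFITM3, which blocks viral entry at the membrane, was at 137 against 732 CPM. In the same 177 pDCs CXCL10 was at 12.4 CPM and IFITM3 at 62.6 CPM. The interferon receptor chain IFNAR2 was higher in pDCs, at 278 against 114 CPM. The GBP and CXCL genes, IFITM3, IFNAR2 and TLR7 and TLR9 were picked for naming after their values had been seen.

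**Figure D2:**
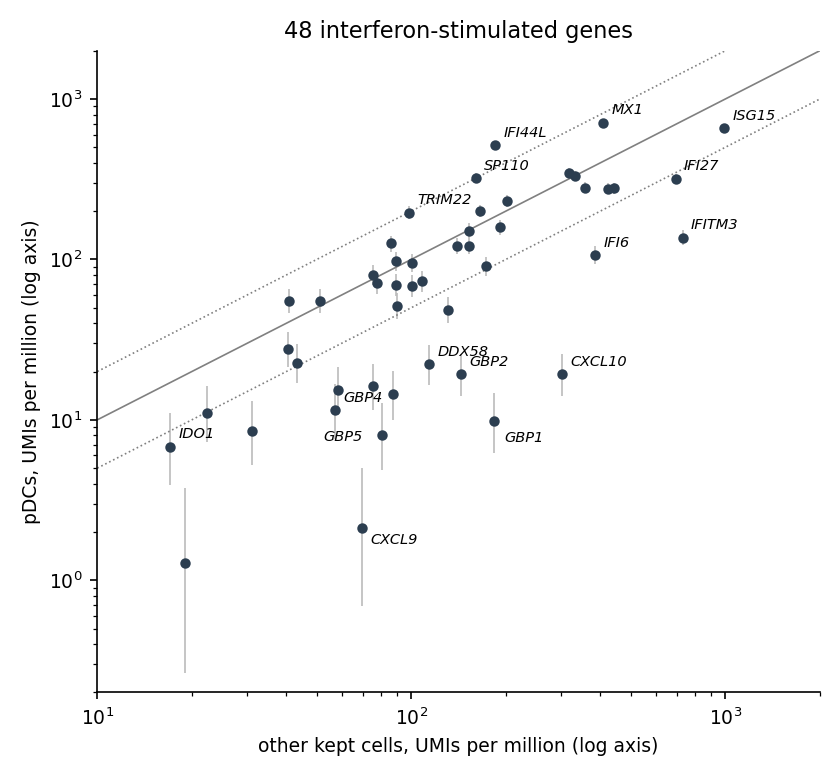
Level of 48 interferon-stimulated genes in pDCs (vertical, log axis, CPM) against all other kept cells (horizontal, log axis); points are genes pooled over all pDCs, bars are 95% exact Poisson intervals of the pDC count, the solid line marks equal levels and the dotted lines 2-fold differences. IFI44L lies above the upper dotted line with 517 against 185, whereas GBP1, GBP2, CXCL9 and CXCL10 lie far below the lower one.

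CLEC4C and LILRA4 signal through the adaptor FCER1G and a cascade that resembles that of the B cell receptor, and some of its genes were high. MALT1, a paracaspase that acts upstream of NF-κB, was at 1051 CPM against 280 in the other kept cells. BLNK, a B cell adaptor, was at 212 CPM in pDCs, 156 in B cells and at most 27.4 in the other populations. LILRB4, an inhibitory receptor, was at 263 against 60.9 CPM. The adaptors TYROBP (900 against 995 CPM) and FCER1G (545 against 888 CPM) were shared with myeloid cells. Without CLEC4C and LILRA4, 5 of 13 genes of this list with a measured level were at least 2-fold higher and 1 lower, with a median log2 difference of 0.51.

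Receptors for homing were led by CXCR4, the receptor for CXCL12, at 721 CPM against 127 in the other kept cells (mice 651 to 983, median 707). ITGA4 (integrin α4) was at 236 against 199 and SELPLG, the P-selectin ligand, at 195 against 80.1 CPM. CXCR3, the receptor for CXCL9, CXCL10 and CXCL11, was at 75.5 CPM and was found in 45.5% of pDCs, with 57.5 CPM in T cells and 0.7 CPM in cDC2. Of 15 measured homing genes 6 were at least 2-fold higher in pDCs than in the other kept cells and 4 lower (all genes: 12.2% and 21%). Transcripts of inflammatory chemokines were low in pDCs, with CCL5 at 66.5 against 589, CCL4 at 55.4 against 694 and CCL3 at 51.2 against 526 CPM in the other kept cells.

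Maturation and effector genes did not move together. LTB, the membrane anchor of lymphotoxin, was among the most abundant transcripts of pDCs at 3997 CPM, against 961 in T cells and 943 in B cells, and was above the other kept cells in 7 of 7 mice (2403 to 4721, median 3739 CPM). CD83, a maturation marker, was at 1432 against 348 CPM, and SLAMF7, a self-ligand receptor, at 274 against 30.5 CPM. NFKB1 was at 496 against 789 CPM. Costimulatory CD86 was at 95.1 against 352 CPM, CD80 at 124 against 100 CPM and TNFSF10 (TRAIL), which activated pDCs can use to kill, at 84.9 against 182 CPM. IL6 was at 3.4 against 49.3 CPM, and at 0.99 CPM in the 177 pDCs left without the 32 cells. Of the 24 measured genes 6 were at least 2-fold higher and 10 lower (all genes: 12.2% and 21%). Among the genes named here, CD83 and LTB RNA were thus high and CD86, TNFSF10 and IL6 RNA low, while CD80 RNA was slightly higher than in the other kept cells. CD80, CD86, TNFSF10 and IL6 were picked for naming after their values had been seen.

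Genes of antigen presentation by MHC class II were mostly within 2-fold of the other kept cells. HLA-DRA, the α chain of HLA-DR, was at 1758 CPM in pDCs, 6969 in cDC2, 6766 in cDC1 and 3904 in macrophages. HLA-DRB1 was at 1551 against 2501 CPM and HLA-DPA1 at 790 against 957 CPM in the other kept cells. CD74, the invariant chain, was closer at 3864 CPM in pDCs and 4197 in cDC2. CIITA, the master regulator of these genes, was at 260 against 109 CPM, while IFI30, a lysosomal thiol reductase, was at 160 against 817 CPM. Of 13 genes on this list, 1 was at least 2-fold higher and 1 at least 2-fold lower.

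Genes of the secretory machinery were high in part. SEC61B, a subunit of the translocation channel, was at 952 against 218 CPM, the chaperone HSP90B1 at 830 against 397, HERPUD1, a factor of endoplasmic reticulum-associated degradation, at 763 against 88.7 and SPCS1, a signal peptidase subunit, at 489 against 112 CPM. DERL3, known from plasma cells, was at 145 against 2.3 CPM, and XBP1, the factor that expands the secretory compartment, at 230 against 81.8 CPM. Of 26 genes 9 were at least 2-fold higher and 0 lower, with a median log2 difference of 0.50.

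Transcripts of immunoglobulin constant regions were found in pDCs. IGKC (the κ light chain) was at 589 CPM and in 89.5% of pDCs, against 6975 CPM in B cells and 22.3 in T cells. After thinning to 2000 UMIs, 62.4% of pDCs, 41.4% of B cells, 1.1% of T cells and 0.8% of macrophages had an IGKC UMI, so the shares differed at equal depth. IGHM (the μ heavy chain) was at 172 CPM against 5748 in B cells and was above the other kept cells in 6 of 7 mice. IGLC2 was at 58.9 CPM. TNFRSF17 (BCMA) was at 20.5 against 0.3 CPM, whereas SDC1 (CD138), which defines plasma cells, had 0 UMIs. CD20 RNA (MS4A1) was found in 2.9% of pDCs. In the 177 pDCs left without the 32 cells, IGKC was at 587 CPM and IGHM at 146 CPM.

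Chains and feedback genes of cytokine signaling were also measured. CSF2RB, the chain shared by the IL-3 and GM-CSF receptors, was at 215 against 31.2 CPM, and the feedback inhibitors CISH and SOCS1 were at 98.1 against 24.7 and 139 against 40.3 CPM. CSF2RA, the GM-CSF receptor chain, was at 233 against 232 CPM. MCL1, which opposes apoptosis, was at 536 against 342 CPM, and FLT3, the receptor of the dendritic cell growth factor FLT3L, at 45.2 CPM against 276 in cDC1. In this list, without IL3RA, 7 of 25 genes were at least 2-fold higher and 6 lower. Over all genes the shares were 12.2% and 21%, so the part that was lower was near that of all genes.

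Lipid, oxidative stress and hypoxia genes were mostly lower in pDCs than in the other kept cells, with exceptions. CD36, the scavenger receptor for oxidized lipids, was at 603 CPM in pDCs, 286 in monocytes, 235 in cDC2 and 104 in macrophages, and its lowest and highest mice had 438 and 805 CPM. The lipid droplet coat gene PLIN2 was at 28.6 against 350 CPM and heme oxygenase HMOX1 at 28.6 against 451 CPM. TFRC (transferrin receptor) was at 126 against 364 CPM. Of the 12 lipid and oxidative stress genes, taken from the study's own interests, 2 were at least 2-fold higher and 8 lower, with a median log2 difference of -2.63. Among 13 hypoxia genes 10 were at least 2-fold lower, among them LDHA (152 against 493 CPM), PGK1 (169 against 402) and ENO1 (215 against 654), while EGLN3, an oxygen-sensing prolyl hydroxylase, was at 281 against 20.8 CPM. EGLN3 varied by several fold over mice, from 117 to 760 CPM. Heat shock and immediate early genes differed little, with 1 of 14 at least 2-fold higher and 2 lower (all genes: 12.2% and 21%).

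AXL and SIGLEC6 mark a dendritic cell population, close to pDCs, that shares CLEC4C and IL3RA with them. AXL was found in 49 of 209 cells (23.4%), SIGLEC6 in 23 (11%) and PPP1R14A, another gene of that population, in 96 (45.9%), and 8 cells carried all 3. AXL was at 46.9 CPM in pDCs against 34.5 in the other kept cells and 59.7 in macrophages, SIGLEC6 at 18.8 against 1.8 and PPP1R14A at 117 against 5.7 CPM. DAB2 was at 82.3 against 238 CPM and CD2 at 46.5 against 140 CPM. Of 12 measured genes of this list 4 were at least 2-fold higher in pDCs and 7 lower (all genes: 12.2% and 21%). Of the pDCs, 25 cells (12%) had at least 2 UMIs over 6 mitosis genes and 7 had at least 5. MKI67 was at 41.0 CPM, and 13 of 14 cycling genes were at least 2-fold lower than in the other kept cells. The summed list was at 667 CPM in maraviroc mouse 3 of reaction 2, above the 407 CPM of its other cells, at 466 CPM in maraviroc mouse 2 and at 68.5 to 172 CPM in the other 5 mice.

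PTGDS, which encodes the synthase of prostaglandin D2, divided the pDCs. Pooled, it was at 1612 CPM against 7.6 CPM in the other kept cells, but it was found in 43.5% of the cells only. No UMI was found in 118 pDCs, 1 to 9 UMIs in 23 and 10 or more in 68, and these 68 cells held 3680 of the 3780 UMIs. The 20 cells with most PTGDS held 65.9% of them, and the highest cell had 255. Depth was similar at the extremes, with medians of 11294.5 UMIs in cells without PTGDS and 12692 in cells with 10 or more. After thinning to 2000 UMIs, 23 of 65 cells of reaction 1 (35.4%) and 54 of 132 cells of reaction 2 (40.9%) had PTGDS, and over both reactions the share was 39.1% in pDCs and 0.2% in T cells. Cells with 10 or more PTGDS UMIs and cells without had similar levels of TCF4 (3710 and 3761 CPM), CLEC4C (286 and 328) and LAMP5 (161 and 148). They had 2809 and 2338 CPM of GZMB, 2708 and 2097 CPM of JCHAIN, 1141 and 920 CPM of IRF8 and 474 and 321 CPM of TCL1A. The 23 cells with 1 to 9 UMIs had 3024 CPM of GZMB, 3104 of JCHAIN, 900.04 of IRF8 and 336 of TCL1A, so GZMB and JCHAIN were highest and IRF8 lowest in this middle class. The split was made on PTGDS after its values had been seen, and no test was made of these differences.

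**Figure D3:**
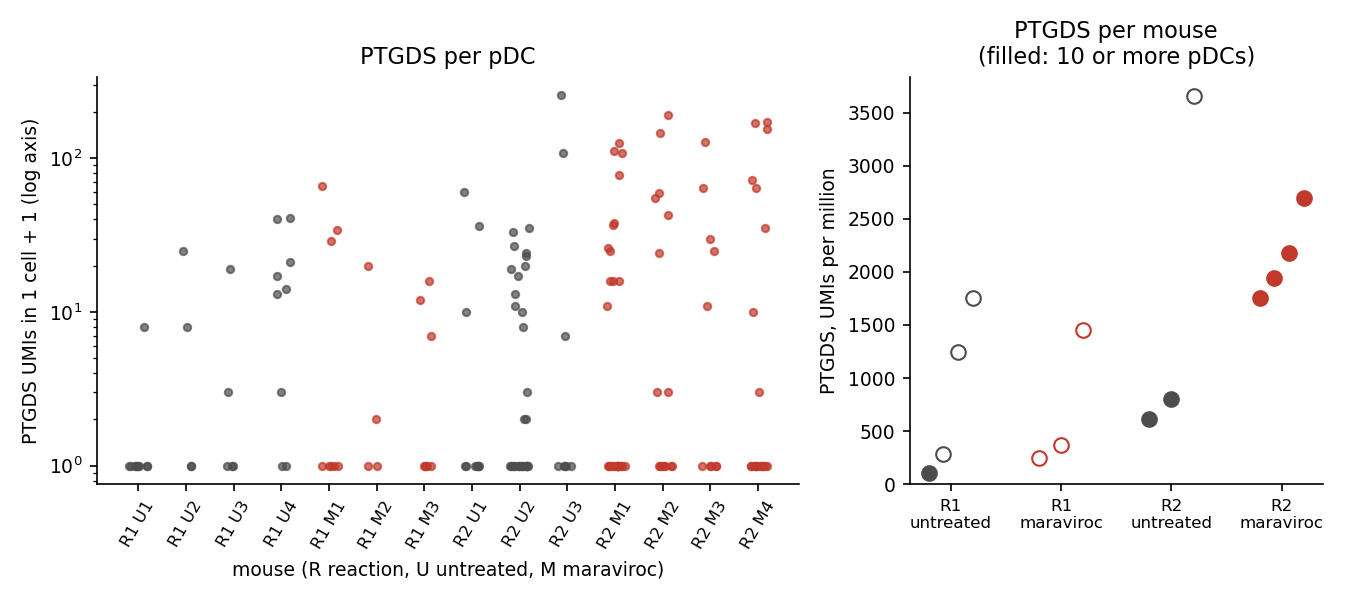
Left, PTGDS UMIs in each pDC with a clear hashtag, plus 1, on a log axis, for 14 mice (R reaction, U untreated in grey, M maraviroc in red); right, PTGDS in CPM of the summed pDCs of each mouse, with filled points for mice with at least 10 pDCs. Cells without and with PTGDS occur in every mouse, and the untreated mouse of reaction 2 with 8 pDCs has the highest level, 3659.

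To ask whether maraviroc changed how many pDCs the tumors held, the share of pDCs among kept cells with a clear hashtag was compared over mice. In reaction 1 the 4 untreated mice had 1.18%, 0.417%, 0.529% and 0.753%, from 10, 4, 5 and 9 pDCs. The 3 maraviroc mice of that reaction had 0.673%, 0.307% and 0.869%, from 8, 4 and 8 pDCs. The treatments overlapped. In reaction 2 the untreated mice had 0.796%, 2.10% and 0.860%, from 10, 30 and 8 pDCs, and the maraviroc mice had 1.87%, 1.10%, 0.715% and 1.75%, from 27, 15, 10 and 20 pDCs. Here too the treatments overlapped, and the mice with the lowest and the highest share were a maraviroc and an untreated mouse. Over all mice the share was 0.947% ± 0.563 in untreated and 1.04% ± 0.578 in maraviroc mice (SD, n = 7 each). The difference of 0.0937 percentage points had p = 0.992 in a two-sided exact permutation test that exchanged treatments within reactions (1225 regroupings), and adjusted over the 2 measures p = 0.992 as well. The mean difference over these regroupings was 0.0911 points, since reaction 2, with the higher shares, held 4 maraviroc and 3 untreated mice, so 0.0026 points lay beyond the split of mice over reactions. Within reactions it was -0.103 points (exact permutation p = 0.714) in reaction 1 and 0.108 points (p = 0.857, exact permutation) in reaction 2, where the smallest possible p was 0.0286.

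pDCs were also set against conventional dendritic cells (cDC1 and cDC2 together), which does not depend on the number of macrophages or lymphocytes. The log2 ratio of pDCs to cDCs, with 0.5 added to each count, ran from -2.69 through a median of -1.69 to 0.14 in untreated mice and from -2.35 through -1.08 to -0.20 in maraviroc mice. cDCs outnumbered pDCs in 6 of 7 untreated and 7 of 7 maraviroc mice. The means were -1.50 ± 1.02 and -1.24 ± 0.75 (SD, n = 7 each), and their difference of 0.26 was within the spread between mice (two-sided exact permutation within reactions, p = 0.593, adjusted p = 0.992). It was 0.45 in reaction 1 (exact permutation p = 0.571) and 0.09 in reaction 2 (exact permutation p = 0.943). The treatment differences were not shown to differ between reactions either, with exact permutation p = 0.687 for the share and 0.722 for the ratio. A sorted share cannot tell fewer pDCs from more of the other cells.

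**Figure D4:**
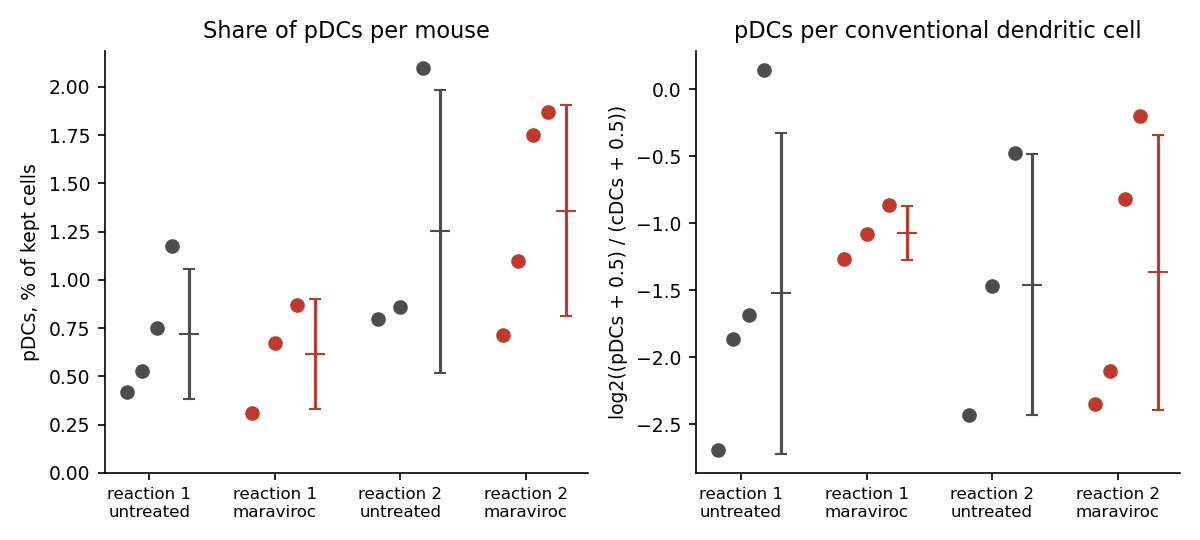
Left, pDCs as % of the kept cells of each mouse; right, log2 ratio of pDCs to conventional dendritic cells, 0.5 added to each count. Points are mice, with bars for mean and SD of each reaction and treatment (3 or 4 mice); untreated (grey) and maraviroc (red) mice overlap in both reactions.

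The RNA content of pDCs was compared between treatments on UMI counts summed over the pDCs of each mouse. With at least 10 pDCs per mouse, 3 untreated and 4 maraviroc mice could be compared, and the 1 such mouse of reaction 1 was untreated, so with the reaction in the model the contrast rested on 2 untreated and 4 maraviroc mice of reaction 2. Of 5441 genes tested, 1 (0.0184%) passed an adjusted p of 0.05 in edgeR's quasi-likelihood test with Benjamini-Hochberg adjustment, and 266 (4.89%) had an unadjusted p under 0.05, of which 91 were higher and 175 lower under maraviroc. With at least 5 pDCs per mouse, 6 untreated and 6 maraviroc mice entered, and 0 of 2568 genes (0.00%) passed in the same test, with 115 (4.48%) at an unadjusted p under 0.05 and a lowest adjusted p of 0.867. DESeq2 called 1 gene in the smaller comparison and 0 in the larger. In simulated data of the smaller comparison edgeR recovered 20 of the 89 tested genes simulated with a log2 change of 1 (22.5%). Of 90 with a change of 2 it recovered 73 (81.1%), and it made 5 false calls. Modest changes were thus mostly missed in such data, and single calls can be false. All genes were simulated with 1 common dispersion (0.061) and without a difference between reactions, so recovery in the real counts can differ. How often a lone call is false was not measured. Changed genes below the low-count filter are not in these shares. For the comparison of 6 against 6 mice the shares were 80.5% and 100%, among 2586 genes, again with 5 false calls.

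The gene that passed was PTGDS, at 101 CPM in the untreated mouse of reaction 1, 806 and 611 in the untreated mice of reaction 2, and 1752, 2693, 1938 and 2177 CPM in the maraviroc mice of reaction 2. These groups did not overlap, and the log2 fold change was 1.60 (SE 0.22, edgeR adjusted p = 0.0374). How many of all genes did not overlap in these mice was not counted. With at least 5 pDCs per mouse, 6.11% of 2568 genes did not overlap between treatments in reaction 2. The mice with fewer pDCs did overlap. Untreated mice with 4, 5, 9 and 8 pDCs had 1244, 288, 1750 and 3659 CPM, and maraviroc mice with 8, 4 and 8 pDCs had 1450, 249 and 371 CPM. In the highest of these, the untreated mouse at 3659 CPM, 1 cell gave 69.3% of the PTGDS UMIs. With at least 5 pDCs per mouse the log2 fold change was 0.34 (SE 0.50, edgeR adjusted p = 0.993). The share of pDCs with PTGDS was 10%, 30% and 50% in the 3 untreated mice with at least 10 pDCs and 44.4%, 53.3%, 50% and 40% in the 4 maraviroc mice, so it overlapped where the level did not. Without any 1 of the maraviroc mice 2, 3 or 4 of reaction 2, or without its untreated mouse 2, the gene no longer passed (adjusted p from 0.0502 to 0.112). It passed with DESeq2 (1.60, DESeq2 adjusted p = 1.03e-07) and with both selection thresholds at 3 UMIs (1.89, edgeR adjusted p = 0.00533), where only 1 untreated mouse was left against 3 maraviroc mice and was assumed to vary like them. Over 14 distinct alternative fits the call was kept in 7, and the adjusted p ran from 8.87e-08 to 0.993.

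Named pDC genes showed no call. GZMB, scaled with TMM over these mice, was 2391 ± 302 CPM in 3 untreated and 2829 ± 287 CPM in 4 maraviroc mice (SD), with a log2 fold change of 0.14 (SE 0.16). JCHAIN was 2517 ± 477 and 2626 ± 270 CPM, with 0.19 (SE 0.17). IRF7 was 498 ± 67.3 and 529 ± 102 CPM, with 0.11 (SE 0.24). ISG15 ranged over 206, 652 and 983 CPM in untreated mice and over 268 to 964 CPM in maraviroc mice, and its log2 fold change of 0.47 (SE 0.44) became -0.20 (SE 0.33) with at least 5 pDCs per mouse. CXCR3 was 85.8 ± 24.6 and 73.6 ± 25.9 CPM, with -0.42 (SE 0.38). AXL had a log2 fold change of -0.27 (SE 0.75), while SIGLEC6 had too few UMIs to be tested. The edgeR adjusted p of each of these 6 tested genes was at least 0.999.

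By list, 42 identity genes were tested and 1, PTGDS, passed, with a median log2 fold change of 0.07 against 0.01 over all genes. Over all genes 2801 of 5441 had a fold change above 0, and with at least 5 pDCs per mouse 1262 of 2568. Of 35 interferon-stimulated genes 0 passed, 26 had a fold change above 0 and 9 below, and the median was 0.24. With at least 5 pDCs per mouse, 15 of 24 were above 0 and the median was 0.05. Of 26 secretory genes 0 passed, 24 were above 0 and the median was 0.25, and with at least 5 pDCs per mouse 16 of 21 were above 0 with a median of 0.23. Of 12 antigen presentation genes 0 passed and 6 were above and 6 below 0, but with at least 5 pDCs per mouse 2 were above and 10 below 0 with a median of -0.11. Among the other lists no gene passed either, and the lowest adjusted p of any list besides identity was 0.339, for 4 mast cell genes. Those mast cell genes summed to 648 CPM in the untreated mouse 2 of reaction 2 and to 0 in the other 6 mice. The monocyte list summed to 2259 CPM in the maraviroc mouse 1 of reaction 2 and to between 57.6 and 1012 CPM in the others, and the B cell list to 673 CPM in untreated mouse 1 of reaction 2 and 376 CPM in that of reaction 1. The plasma cell list ran from 954 to 1918 CPM in the untreated and from 770 to 942 CPM in the maraviroc mice. Of its 5 tested genes 2 had a fold change above 0 and 3 below. The part of the mast, monocyte, B and plasma cell genes in the treatment contrast was not tested.

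**Figure D5:**
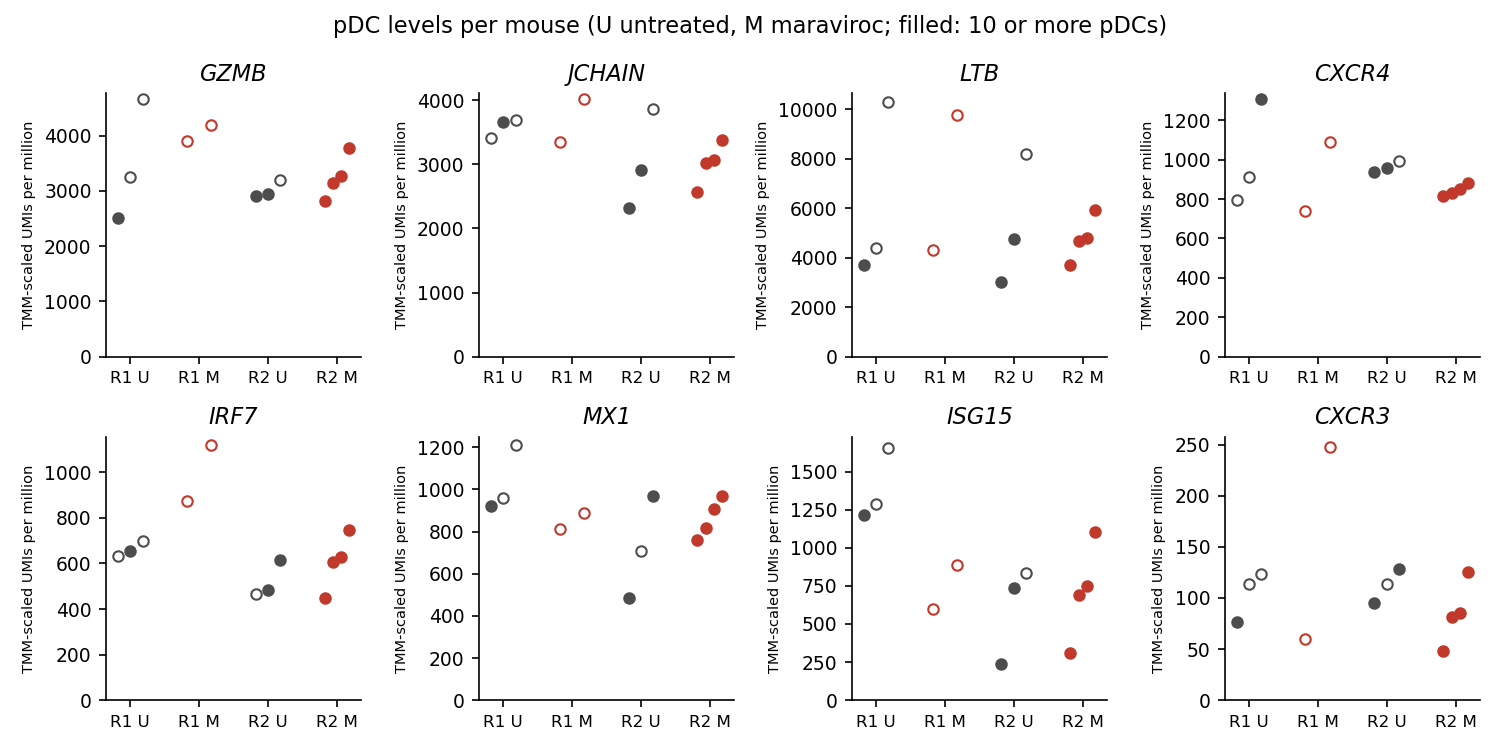
TMM-scaled level (CPM) of 8 genes in the summed pDCs of 12 mice with at least 5 pDCs, by reaction (R1, R2) and treatment (U untreated, grey; M maraviroc, red), with filled points for mice with at least 10 pDCs. In reaction 2 the treatments overlap for 7 of the 8 genes and not for CXCR4. In reaction 1, with 3 untreated and 2 maraviroc mice, they do not overlap for IRF7, MX1 and ISG15. Of all 2568 genes tested, 19.1% did not overlap in reaction 1 and 6.11% in reaction 2. The highest GZMB value, 4657, is an untreated mouse of reaction 1 with 9 pDCs.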

How the data were processed

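Human CD45+ cells of 14 tumors were profiled in 2 reactions with a 3' droplet kit. The authors deposited UMI counts per gene, hashtag and barcode, not normalized, made with Cell Ranger 9.0.1 on GRCh38; Seurat 5.1.0 is also named by the submitters. Total UMIs were 133089612 and 175447534. The treatment of each mouse was read from hashtag names in the feature lists. Cells with above 600 and at most 6000 genes and under 12.5% mitochondrial counts were kept. A cell belonged to a mouse when its top hashtag held at least 60% of hashtag UMIs. No doublet caller was run; members without a clear hashtag entered pooled levels only.

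The rule for pDCs, the gene lists and the tests were chosen with earlier results of these data known. Named genes were the 4 highest of each list, GZMB, JCHAIN, IRF7, ISG15, CXCR3, AXL and SIGLEC6, the 12 genes of highest fold, and genes called for treatment. Some genes that this rule names are not reported here. Further named genes were chosen after their values had been seen. Of the listed genes, 3 symbols had no match.

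Levels are summed UMIs scaled to 1000000 (CPM); folds and log2 differences between pDCs and other cells had 1 CPM added to both levels. Summed counts were tested with edgeR 4.0.16 under R 4.3.3 (TMM, filterByExpr, quasi-likelihood, a term for the reaction, Benjamini-Hochberg), with DESeq2 1.42.0 as an alternative, and were tested on simulated data with 200 changed genes. Shares were compared by exact permutation, computed in Python 3.11.15 with numpy 2.4.6. Exact binomial and Poisson intervals were made with scipy 1.17.1. The replicate is the mouse; p-values measure the spread between mice. Alternatives covered the thresholds, hashtag share, gene number, mitochondrial share, depth, each reaction, the number of pDCs per mouse, normalization, the low-count filter and each mouse left out.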

Additional observations from a re-analysis of the deposited data

Results flagged for a closer look

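GZMB in pDCs was far from the rest in 1 mouse. Among the 6 untreated mice with at least 5 pDCs, untreated mouse 4 of reaction 1, with 9 pDCs, had 4657 CPM (TMM-scaled), and the gap to the next mouse was 0.655 of the group's range. The other untreated mice began at 2519 CPM and had a median, with this mouse, of 3073 CPM. In all, 20 groups of values were examined in this way and chance gives about 1 in 20.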

How the results depend on the processing

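The share of pDCs differed by 0.0937 points between treatments and kept its sign in 21 of 24 alternatives; it reversed in reaction 1 alone (-0.103) and ranged from -0.0445 to 0.286 with each mouse left out, below 0 without maraviroc mouse 1 or 4 (-0.0250) of reaction 2. Beyond the part that the split of mice over reactions gives, the difference was 0.0026 points and was below 0 in 8 of 24 alternatives (-0.104 to 0.165 over all). The log2 ratio to cDCs reversed after thinning to 2000 UMIs (-0.26) and ranged from 0.06 to 0.53 with each mouse left out. No alternative brought either measure past the threshold.

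For treatment, the count of 1 gene became 0 without a term for the reaction and 0 with at least 5 pDCs per mouse, over both reactions, in reaction 1 alone, in reaction 2 alone and by DESeq2 (the last 3 chosen after seeing the data). It became 55 without a low-count filter, 6 with at least 20 pDCs per mouse (1 untreated and 2 maraviroc mice) and 8 with both thresholds at 3 UMIs (1 and 3 mice). It ranged from 0 to 5 with each mouse left out: 5 without untreated mouse 1 or 2 of reaction 2, 0 without its maraviroc mouse 2, 3 or 4. In comparisons with 1 untreated mouse that mouse is assumed to vary like the others. Genes called without the filter or at 20 pDCs included the mast cell genes TPSAB1, CTSG and CPA3. In reaction 2 all 195 UMIs of TPSAB1, TPSB2 and CPA3 in pDCs came from 1 cell. The cells of origin of CTSG were not examined. PTGDS stayed positive in all 15 alternatives, of which reaction 2 alone and the one without the untreated mouse of reaction 1 are the same fit; it lost its call without a reaction term (1.99, adjusted p = 0.573), at 5 pDCs (0.34) and at 20 pDCs per mouse (1.69, adjusted p = 0.149), and ranged from 1.42 to 1.80 with each mouse left out. At 20 pDCs JCHAIN reversed to -0.059 and IRF7 to -0.19. ISG15 reversed at 5 pDCs (-0.20) and with thresholds at 3 UMIs (-0.11). With each mouse left out IRF7 ranged from -0.037 to 0.35, ISG15 from -0.043 to 1.64 and AXL from -1.16 to 0.18. GZMB and CXCR3 kept their sign in all 15 alternatives. The cause of these changes was not tested.

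A comparison with a top hashtag share of at least 80% and one of reaction 1 alone at 10 pDCs per mouse were not run: the first left 1 mouse per treatment and the second 1 mouse in all. No paired analysis was possible because the hashtags carry no number that ties an untreated to a treated mouse. Depth limits scarce transcripts: 3 counts in all pDCs are 1.28 CPM.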
